A study of Homo sapiens with 6 samples.

Results

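The genes described here mark the epithelial and the mesenchymal state of a cell. They were chosen by Ensembl identifier, with no measured value in the rule but with earlier results of these data known. The list held 10 genes, and all 10 identifiers were found among the 26445 probe sets of the arrays. It comprised the epithelial surface genes CDH1 (ENSG00000039068_at) and EPCAM (ENSG00000119888_at), the mesenchymal genes CDH2 (ENSG00000170558_at), VIM (ENSG00000026025_at) and FN1 (ENSG00000115414_at), and the transcription factor genes ZEB1 (ENSG00000148516_at), ZEB2 (ENSG00000169554_at), SNAI1 (ENSG00000124216_at), SNAI2 (ENSG00000019549_at) and TWIST1 (ENSG00000122691_at).

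SW480 is a human colon cancer cell line. All arrays came from a single SW480 clone, Clone 13, which had been selected with blasticidin S and then with G418. It carries the tetracycline repressor and a KIAA1199 construct that the repressor holds silent until doxycycline is added. The doxycycline group (3 arrays) was induced at 50 ng/ml for 48 h and the uninduced group (3 arrays) was the same clone without induction, with 1 array of each group in each of 3 independent experiments. These arrays include no cells that received doxycycline without the construct, so doxycycline itself and KIAA1199 cannot be told apart in them. The values are log2 expression levels, and the identifier of KIAA1199 could not be looked up, so the induction itself was not checked in them. On all 6 arrays the median level was 5.66, and the levels of all arrays together ran from 1.48 to 12.6. At the same rank the arrays differed by at most 0.024, which shows that they had been brought to 1 common distribution. EPCAM, an epithelial marker, had levels of 10.69 to 10.86 over the arrays and CDH1 had levels of 7.90 to 8.15. All were above 4.02, the level under which the lowest 25% of the probe sets lie. The mesenchymal genes VIM, at 10.19 to 10.43, and FN1, at 8.09 to 8.67, were also above it, while CDH2 was below it. These levels therefore do not assign the cells to 1 state, and other markers of colon epithelium were not analysed here. A total RNA sample is a mean over all cells of a culture, so more cells that express a gene and more RNA per cell cannot be told apart.

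Epithelial cells are held together by junctions built around E-cadherin, the product of CDH1, and mesenchymal cells lose these junctions, carry N-cadherin and vimentin filaments and deposit fibronectin. The passage between the states is called the epithelial-mesenchymal transition. ZEB1, ZEB2, SNAI1, SNAI2 and TWIST1 are transcription factors that drive it and that repress CDH1, the ZEB and Snail proteins by binding E-boxes, short DNA motifs of the form CANNTG. Colon cancer cells often express markers of both states. The comparison of doxycycline with uninduced cells asks whether the transcripts of these genes differed after induction.

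FN1, which encodes the matrix protein fibronectin, was the member with the largest difference, 1.24-fold higher with doxycycline, and with limma the only one of the 10 that passed the limits of the study's methods, where 5.83% of all probe sets did. It was outside these limits in the methods' t-test, without the block, and without experiment 2 or 3. That t-test was run here on Ensembl-named probe sets, while the study tested transcript clusters, so its outcome is not the study's own. CDH1 was 1.14-fold higher with doxycycline, and ZEB1 was 0.879-fold of its uninduced level. In these 3 genes the 3 doxycycline arrays did not overlap with the 3 uninduced arrays, while in the other 7 the groups overlapped. Of all probe sets, 16.6% had groups that did not overlap. The epithelial marker CDH1 and the mesenchymal marker FN1 therefore both had higher levels in the doxycycline arrays, and no member was past an adjusted p of 0.05.

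Promoter sequences are shown for FN1, as the member past the limits, and for ZEB1, whose groups also did not overlap and whose first promoter holds E-boxes. They are the 250 bases before the RefSeq start of each gene (assembly GRCh38.p14), read 5′ to 3′ on the strand of the gene. FN1 lies on the minus strand, and its sequence covers chr2:215436069-215436318. ZEB1 lies on the plus strand with 7 starts in the table, and the sequence before the most upstream one covers chr10:31318167-31318416. Capitals mark TGACGTCA, the cyclic AMP response element, in FN1 and CAGGTG, 1 of the 2 E-boxes, in ZEB1.
FN1: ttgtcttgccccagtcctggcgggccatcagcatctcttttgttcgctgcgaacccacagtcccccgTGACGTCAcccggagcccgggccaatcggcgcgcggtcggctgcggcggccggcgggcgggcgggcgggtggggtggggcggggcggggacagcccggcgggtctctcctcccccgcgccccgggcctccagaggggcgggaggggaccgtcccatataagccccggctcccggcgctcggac
ZEB1: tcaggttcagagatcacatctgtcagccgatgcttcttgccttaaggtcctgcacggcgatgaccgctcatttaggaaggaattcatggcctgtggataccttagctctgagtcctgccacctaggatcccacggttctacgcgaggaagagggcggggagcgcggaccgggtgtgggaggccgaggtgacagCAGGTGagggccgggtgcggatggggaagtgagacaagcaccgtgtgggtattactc

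The response element in FN1 begins 183 bases before the start, and CAGGTG in ZEB1 begins 57 bases before its start. The other CANNTG match in that ZEB1 sequence, CATCTG, lies farther upstream and is not in capitals. Both strands were searched. CACCTG, which reads CAGGTG on the other strand, was not found in the FN1 sequence, nor was any CANNTG. Windows of this length hold CACCTG in 17.5% of all 35116 promoters in the table, CANNTG in 61.8% and TGACGTCA in 1.65%. Of the 10 genes, CDH2, VIM, FN1, ZEB1 and ZEB2 had entries, 12 windows in all, of which 2 held CACCTG (both of ZEB1), 6 held CANNTG, which includes the letters of CACCTG, and 1 held TGACGTCA. CDH1, EPCAM, SNAI1, SNAI2 and TWIST1 had no entry. TGACGTCA was searched after the values were seen, and a match describes letters only.

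**Figure D1:**
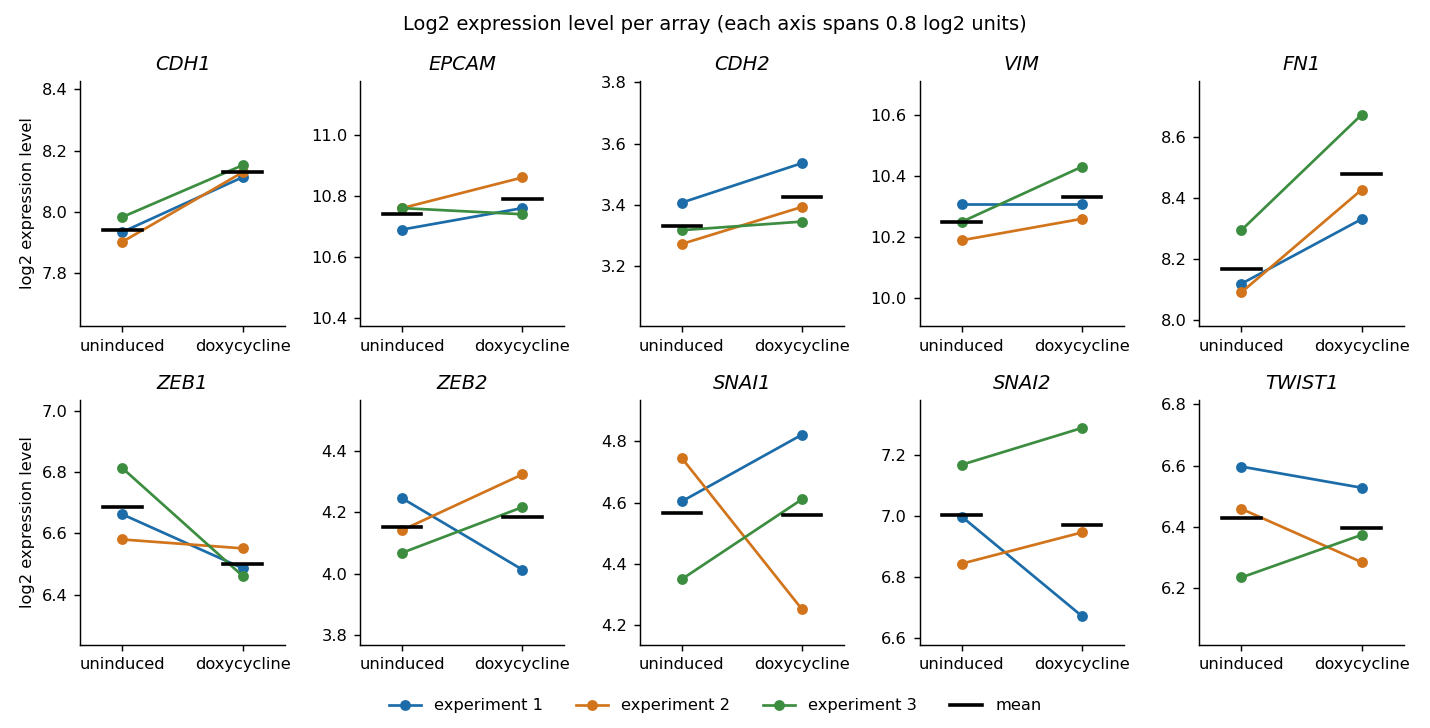
Log2 expression level (y axis, the same span in every panel) of each of the 10 genes on the uninduced and doxycycline arrays (x axis). Points are arrays, lines join the arrays of 1 experiment, and black bars are the means of 3 arrays. CDH1 and FN1 lie higher on every doxycycline array than on any uninduced array and ZEB1 lies lower, while the lines of ZEB2, SNAI1, SNAI2 and TWIST1 run in both directions.

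Among the epithelial genes, CDH1 had log2 levels of 7.93, 7.90 and 7.98 in uninduced cells of experiments 1, 2 and 3 and of 8.11, 8.13 and 8.15 with doxycycline. Every doxycycline array was above every uninduced array, with a gap of 0.13 between the groups. The differences in the 3 experiments were 0.18, 0.23 and 0.17, so they were close to each other, with an SD of 0.031. Over all probe sets the median SD of the 3 differences was 0.14. That median covers dim and bright probe sets alike and was not matched to the level of CDH1. The log2 fold change of CDH1 was 0.19 (standard error 0.061, 95% interval 0.022 to 0.36), with an unadjusted p of 0.035 and a Benjamini-Hochberg adjusted p of 0.38 in limma with the experiments as a block. It missed the limits of the study's methods, which ask for an unadjusted p under 0.025 and a change of 1.2-fold or more, on both counts. With the methods' t-test, which is paired and uses the spread of this gene alone, the unadjusted p was 0.0086 (adjusted p = 0.42), and the fold change of 1.14 was still below the minimum. A change of this size or larger was found for 25.6% of all probe sets.

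EPCAM encodes an adhesion molecule found on nearly all simple epithelia. Its log2 levels were 10.69, 10.76 and 10.76 without and 10.76, 10.86 and 10.74 with doxycycline, so the groups overlapped, and doxycycline was higher in experiments 1 and 2 and lower in experiment 3. The fold change was 1.03 with a 95% interval of 0.914 to 1.17 (adjusted p = 0.80, limma). Levels of EPCAM and VIM are deposited to 2 decimals, which makes a step of 0.01 the smallest that can be read.

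The mesenchymal genes all had means above those of uninduced cells, but by different amounts. FN1 had log2 levels of 8.12, 8.09 and 8.29 in uninduced cells and of 8.33, 8.43 and 8.67 with doxycycline. The groups did not overlap, although the gap was only 0.036, because the uninduced array of experiment 3 lay close below the doxycycline array of experiment 1. Within experiments the differences were 0.21, 0.34 and 0.38, and their SD was 0.086. The log2 fold change was 0.31 (standard error 0.069, 95% interval 0.11 to 0.50), with an unadjusted p of 0.011 and an adjusted p of 0.35 in limma, and 11.2% of all probe sets changed by as much or more. In the methods' t-test FN1 lay just outside the limits, with an unadjusted p of 0.02524. In limma it also lay outside them without the block (unadjusted p = 0.032), and when experiment 2 (0.060) or experiment 3 (0.056) was left out.

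VIM encodes vimentin, the intermediate filament of mesenchymal cells. Its log2 levels were 10.31, 10.19 and 10.25 in uninduced cells and 10.31, 10.26 and 10.43 with doxycycline. The arrays of experiment 1 were equal, those of experiments 2 and 3 were 0.07 and 0.18 higher with doxycycline, and the groups overlapped. The fold change was 1.06, with a 95% interval of 0.925 to 1.21 and an adjusted p of 0.68 (limma).

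CDH2, the gene of N-cadherin, had uninduced levels from 3.27 to 3.41 and doxycycline levels from 3.35 to 3.54. Its mean level was in the lowest 25% of all probe sets, those up to 4.02, and no detection calls were used, so a signal near background was not separated from one above it. Doxycycline was higher in 3 of 3 experiments, by 0.13, 0.12 and 0.028, but the groups overlapped. The fold change was 1.07 with a 95% interval of 0.943 to 1.21 (adjusted p = 0.62, limma). CDH1 and CDH2, whose exchange is known as the cadherin switch, thus had differences of the same sign in each experiment.

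**Figure D2:**
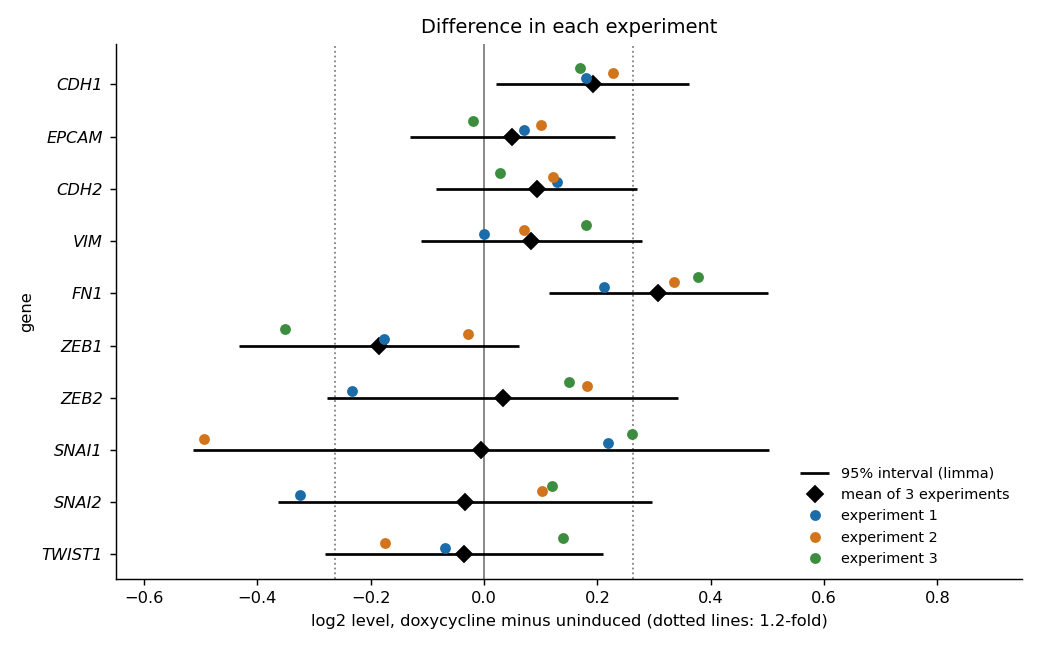
Difference in log2 level, doxycycline minus uninduced (x axis), for each gene (y axis) in experiments 1, 2 and 3 (points), with their mean (diamonds) and its 95% interval from limma (bars), and dotted lines at a 1.2-fold change. The interval lies above 0 for CDH1 and FN1 and includes 0 for the other 8 genes, and only the mean of FN1 is beyond a dotted line.

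Among the transcription factor genes, ZEB1 differed most. ZEB1 encodes a zinc finger repressor of CDH1 and of other junction genes. Its log2 levels were 6.66, 6.58 and 6.81 in uninduced cells and 6.49, 6.55 and 6.46 with doxycycline. All doxycycline arrays were below all uninduced arrays, but the gap was 0.029 and the differences were uneven, at -0.18, -0.029 and -0.35 in experiments 1, 2 and 3. The log2 fold change of -0.19 (standard error 0.089, 95% interval -0.43 to 0.062) had an unadjusted p of 0.11 and an adjusted p of 0.49 in limma. It was -0.26 without experiment 2 and -0.10 without experiment 3. A change as large or larger was found for 26.8% of all probe sets.

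ZEB2, SNAI1, SNAI2 and TWIST1 had no common direction over the experiments. ZEB2, the close relative of ZEB1, had differences of -0.23, 0.18 and 0.15 in experiments 1, 2 and 3. SNAI1, the gene of Snail, had uninduced levels of 4.60, 4.75 and 4.35 and doxycycline levels of 4.82, 4.25 and 4.61. Its differences of 0.22, -0.49 and 0.26 were the most uneven of the 10 genes, with an SD of 0.42, and their mean of -0.0050 combines a lower level in experiment 2 with higher levels in the other two. SNAI2, the gene of Slug, had differences of -0.33, 0.10 and 0.12. TWIST1, a basic helix-loop-helix factor, had differences of -0.069, -0.17 and 0.14. ZEB2, with mean levels of 4.152 uninduced and 4.185 with doxycycline, and SNAI1 lay under the median mean level of all probe sets, 5.654. The doxycycline array of ZEB2 in experiment 1, at 4.013, was under 4.02, the limit of the lowest 25%. No detection calls were used, so in ZEB2 and SNAI1 too a signal near background was not separated from one above it.

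For these 4 genes the 95% intervals of the fold change ran from 0.825 to 1.27 for ZEB2, from 0.701 to 1.42 for SNAI1, from 0.777 to 1.23 for SNAI2 and from 0.824 to 1.16 for TWIST1. The interval was widest for SNAI1, and in ZEB2, SNAI1 and SNAI2 it took in changes of 1.2-fold in both directions. Their adjusted p in limma was between 0.91 and 0.99. At 3 arrays per group a change of a size within these intervals was not excluded, so these values are not a finding of equal levels. Transcript levels also leave out the amount and location of these proteins.

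Over the whole list, 1 of the 10 genes (FN1, raised) was past the study's limits and 0 were lowered past them. Of all probe sets, 5.83% were past the limits in either direction and 2.9% were raised past them. The groups did not overlap for 3 of the 10 genes, where 16.6% of all probe sets had groups that did not overlap, and 4 of the 10 (CDH1, CDH2 and FN1 upward, ZEB1 downward) had the same direction in all 3 experiments, where 36.5% of all probe sets did. No gene had an adjusted p under 0.05 in limma (0 of 10, and 0% of all probe sets). At an unadjusted p under 0.05, limma counted 2 of the 10 (CDH1 and FN1) and 3248 of the 26445, and the methods' t-test counted 2 of the 10 and 2755 of the 26445, again with 0 past an adjusted p of 0.05. With 3 pairs, the exact sign-flip permutation test of a single gene cannot give a two-sided p below 0.25.

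The size of the differences was small as well. The median log2 fold change was 0.12 for the 2 epithelial genes, 0.093 for the 3 mesenchymal genes and -0.034 for the 5 transcription factor genes, and over all probe sets it was 0.0017. The median absolute log2 fold change of the 10 genes was 0.067, and that of all probe sets was 0.10. Averaged over the mesenchymal genes the difference was 0.11, 0.18 and 0.20 in experiments 1, 2 and 3, and averaged over the epithelial genes it was 0.12, 0.16 and 0.075. These means cover few genes, and their members did not all share the sign, since EPCAM differed by -0.020 in experiment 3 and VIM by 0 in experiment 1.

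**Figure D3:**
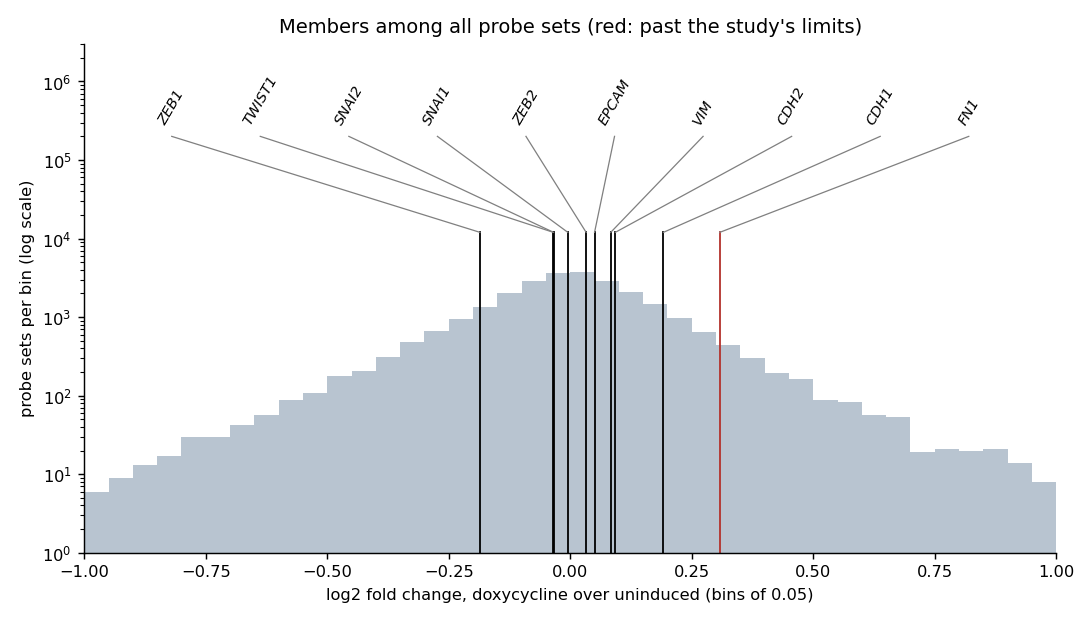
Number of probe sets (y axis, log scale) by log2 fold change of doxycycline over uninduced cells in bins of 0.05 (x axis, drawn from -1 to 1), with a line at the value of each of the 10 genes. FN1, in red, is past the study's limits, and 7 of the other genes lie within 0.10 of 0, near the centre of the distribution.

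The sum of squares of each gene over the 6 arrays was divided into a share between doxycycline and uninduced arrays, a share between experiments and a rest. There are more experiments than groups, so random spread alone gives a larger share between experiments on average. A share is therefore to be compared with the same share over all probe sets, not with the other shares of its gene. The share between groups was 93.1% for CDH1, 62.3% for FN1 and 61.6% for ZEB1, where the median of all probe sets was 18.5%. The share between experiments was 5.30% for CDH1 and 34.5% for FN1, and the median of all probe sets was 38.2%.

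Above that median, 73.2% of the spread of SNAI2, 72.5% of that of TWIST1 and 61.9% of that of CDH2 lay between experiments, while 0.727%, 1.82% and 30.6% lay between groups. SNAI2 was highest in experiment 3 in both groups, and TWIST1 was highest in experiment 1 in both. For ZEB2 and SNAI1, both of low level, most of the spread, 78.8% and 72.8%, belonged neither to the groups nor to the experiments.

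**Figure D4:**
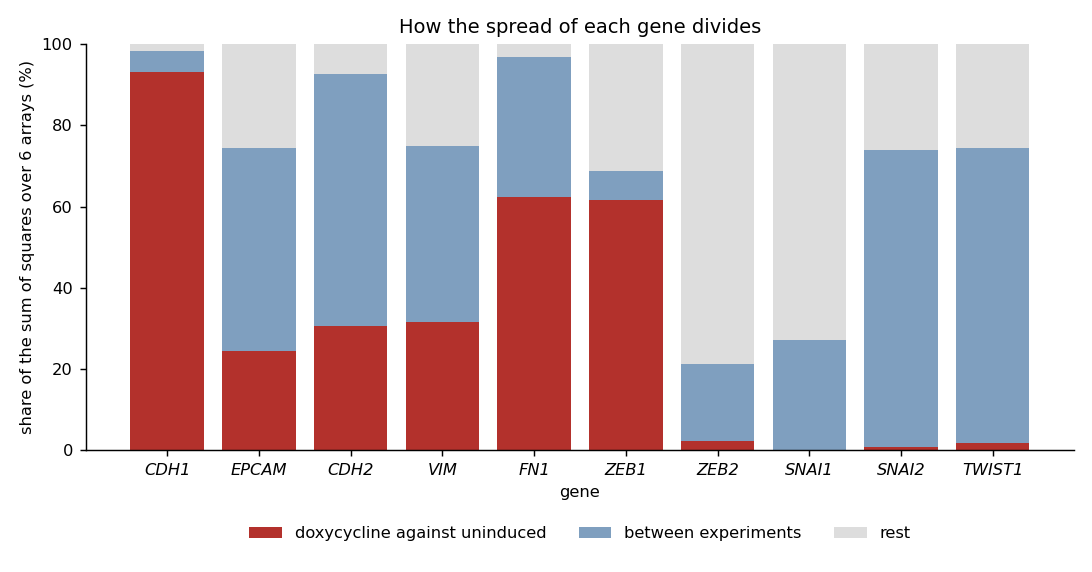
Share of the sum of squares of the log2 level over the 6 arrays (y axis, percent) between doxycycline and uninduced arrays, between experiments, and in the rest, for each of the 10 genes (x axis). The share between groups is 93.1% for CDH1, 62.3% for FN1 and 61.6% for ZEB1, and at most 2.37% for ZEB2, SNAI1, SNAI2 and TWIST1.

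Likeness of profile was measured with Pearson's r of the log2 levels over the 6 arrays, which share their groups and experiments, among the members with a mean level at or above the median of all probe sets. The profile most like that of CDH1 was that of FN1 (r = 0.894), followed by VIM (0.645) and EPCAM (0.470), and ZEB1 had the lowest r, -0.63. The profile of VIM was most like that of FN1 (0.763), then CDH1 (0.645) and SNAI2 (0.495). Over 6 arrays values as high as these also occurred among other probe sets. Of the 13222 other probe sets at that level, 4.50% had an r with CDH1 as high as that of FN1, and 21.8% had one as high as that of VIM. For VIM, 12.4% had an r as high as that of FN1.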

How the data were processed

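Total RNA of 3 uninduced and 3 doxycycline-induced SW480 Clone 13 cultures was hybridized to GeneChip Human Exon 1.0 ST arrays, and the authors deposited a log2 level per Ensembl gene identifier and array. The labels name RMA, which corrects background, normalizes by quantiles and summarizes probes; its version, the probe annotation and the genome build are not given in the sources used here. Such processing removes any shift common to a whole array and compresses differences of dim probe sets. No values were missing and 0 columns were left unused.

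Groups and experiments came from the sample titles; the treatment text of the labels gives the doxycycline exposure for all samples, uninduced ones included. The 10 genes and the lists were chosen with earlier results of these data known, and each gene symbol came with its identifier in the selection rule. All 26445 probe sets were fitted 2-sided with limma 3.58.1 in R 4.3.3 (lmFit, eBayes), with the experiment as a block as in the study's paired test, with Benjamini-Hochberg adjustment over the whole table. The fit was tested on simulated data with changes larger than those of the 10 genes, so that test says nothing about changes of their size. Precision is set by 3 arrays per group. The rule for the text named all 10 genes. Wider lists of junction, matrix, transcription factor and TGF-beta pathway genes and of cell type markers were planned but not analysed here, since the gene table used pairs no Ensembl identifiers with symbols. CDH1 and EPCAM, the epithelial genes measured here, mark epithelium in general, so the colon origin of the cells was not checked. The alternatives left out the block, the dimmest 25% of probe sets or each experiment in turn, or changed the test (the methods' t-test), the normalization, the prior variance or the fold change minimum.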

Additional observations from a re-analysis of the deposited data

How the results depend on the processing

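The fold changes of the 10 genes were recomputed under 9 alternatives, 89 values in all, since CDH2 has none once the dimmest 25% of probe sets are left out. Of these, 80 kept their direction and their side of the study's limits. A second quantile normalization tests little, because the deposited values already share 1 distribution.

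The count of members past the limits, 1 (FN1), was 0 with no replicate block, 0 in the methods' t-test, 0 at a fold change of at least 1.5, and between 0 and 1 with an experiment left out. FN1 kept its log2 fold change of 0.31 with no replicate block and in the methods' t-test, but not its place past the limits; with an experiment left out it was 0.27 to 0.36, and it passed only without experiment 1. Its adjusted p lay between 0.17 and 0.62 over all alternatives. The cause was not tested, and fits without an experiment rest on fewer arrays.

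With an experiment left out, VIM lay between 0.035 and 0.13 (0.083 with all) and EPCAM between 0.025 and 0.085 (0.050 with all), with the lowest values without experiment 3 for VIM and without experiment 2 for EPCAM. Leaving out an experiment turned the sign of 4 genes, none of them past the limits. Values ranged from -0.042 to 0.17 for ZEB2, from -0.14 to 0.24 for SNAI1, from -0.11 to 0.11 for SNAI2 and from -0.12 to 0.035 for TWIST1, with the sign turned without experiment 1 for SNAI2, without experiment 2 for SNAI1 and TWIST1, and without experiment 2 or 3 for ZEB2.

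Over all probe sets, 1543 were past the limits, 1050 with no replicate block, 577 in the methods' t-test, 238 at a fold change of at least 1.5, and 986 to 1344 with an experiment left out. None (0) was past an adjusted p of 0.05 in limma or in the methods' t-test. Arrays with the same replicate number deviated from their group means with an r of 0.039, 0.049 and 0.13, so the values do not by themselves pair the arrays, and the block follows the study's paired test.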
